A study of Mus musculus with 9 samples.

Results

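Transcripts of 10 genes that mark granulosa cells, the follicle cells that surround an oocyte, were examined in RNA of mouse oocytes from XX, XO, and XY females. The genes were taken by name, whatever their values, from the matrix of unique molecular identifiers (UMIs) and from the matrix of normalized CPM, to read how much follicle cell RNA the oocyte samples carried. They were Kitl, Serpine2, Tnni3, Amh, Foxl2, Inha, Inhba, Inhbb, Fst and Wt1. Of the 28052 genes in the UMI matrix, 7 were members of this list, and Amh, Foxl2 and Inhbb had no row in the matrices used here. Only 1 of the 28052 genes had 0 UMIs in all pools. A missing row can therefore mean that no UMI was counted, which could not be checked. In sum, Kitl, Serpine2 and Tnni3 carried nearly all UMIs of the list, whereas Inha, Inhba, Fst and Wt1 were at or near 0. Kitl transcripts were most abundant in XX oocytes, intermediate in XY oocytes and lowest in XO oocytes. Serpine2 and Tnni3 had the opposite difference between XX and XO oocytes, with high values in XO2 and XO3 but not in XO1, and their calls were lost when XO3, XX1 or XX2 was left out.

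The study comprised 9 pools of 30 oocytes, 3 from each genotype, and the labels give an age of 18 days postpartum (dpp) and the C57BL/6 (B6) strain for all of them. XY females carried the Y chromosome of their B6.Y TIR sires and were littermates of the XX females. XO females were sired by males carrying the Paf mutation, whose line had been moved by backcrossing from C3H/HeSnJ to B6, so XO oocytes differed from the others in their sires as well as in the absence of a second sex chromosome. No treatment was compared, and the ovaries of all females were dissociated with collagenase and trypsin before oocytes were collected. Pools are called XX1 to XX3, XO1 to XO3 and XY1 to XY3 by replicate. The study calls them biological triplicates, but the labels do not tie a pool to particular females, so p-values measure the spread between these pools.

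Granulosa cells and the oocyte exchange signals throughout follicular growth. The cells supply KIT ligand, which acts on the KIT receptor in the oocyte membrane, and secrete inhibins, activins, follistatin and anti-Müllerian hormone, while the oocyte secretes GDF9 and BMP15, which act back on the granulosa cells. FOXL2 and WT1 are transcription factors of the granulosa lineage. A growing oocyte is joined to these cells by projections through the zona pellucida, and a sample of isolated oocytes can therefore carry follicle cells or their fragments.

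Between 2130145 and 3157338 UMIs were assigned to genes in each pool, and between 18334 and 21044 genes had at least 1 UMI. Spike-in RNA made up 0.204 to 0.862% of the UMIs. Mitochondrial transcripts were 13.1% of gene UMIs in XO1 and 10.8% in XY1, and 2.65 to 6.02% in the other pools. A UMI count reflects the number of 5′ ends captured, without a correction for length, so values of a gene or list are compared between pools, and ranks by count only served to choose which genes of a list are named.

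Serpine2 and Tnni3 followed each other over the pools, as described below, and their promoters are shown for that reason. The sequences are those of RefSeq (GRCm38.p6) upstream of the annotated start, written 5′ to 3′ on the strand of the gene, without the bases that belong to an exon of the gene in Gencode vM21. Capitals mark matches to an E-box (CANNTG) or a GC box (GGGCGG), searched on both strands. The Serpine2 stretch lies at chr1:79858697-79858915 on the minus strand and the Tnni3 stretch at chr7:4522529-4522694, also on the minus strand.
Serpine2: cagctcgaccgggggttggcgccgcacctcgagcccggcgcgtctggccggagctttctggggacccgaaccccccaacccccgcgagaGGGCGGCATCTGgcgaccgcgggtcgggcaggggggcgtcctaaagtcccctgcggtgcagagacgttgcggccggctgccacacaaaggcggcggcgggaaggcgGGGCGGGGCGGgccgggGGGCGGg
Tnni3: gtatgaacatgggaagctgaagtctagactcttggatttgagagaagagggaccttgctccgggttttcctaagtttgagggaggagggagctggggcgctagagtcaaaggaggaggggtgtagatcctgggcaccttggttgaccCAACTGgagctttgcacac

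The promoters differed in base composition. Of the 250 bases before the start, 78.8% were G or C in Serpine2, 69.2% in Kitl and 53.6% in Tnni3, with a median of 52.4% over 32851 mouse promoters of this length. The GC box occurred 6 times in Serpine2, 3 times in Kitl and not in Tnni3, and 32.7% of all promoters held it at least once. The Serpine2 matches at -19 and -13 lay in exon bases and are not in the stretch shown. Tnni3 and Serpine2 each had 1 E-box, at -19 and -155 from the start, which 66.2% of promoters held, and Kitl alone of the 3 had a TATAAA, at -25, which 12.4% held. CCAAT and TAATTA, in 33.8 and 4.84% of promoters, were not in these 3 windows. A match of letters is a description and not a binding site. Entries were found for 7 of the 10 members.

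The list as a whole was a very small part of each pool. Summed over the 7 members with a row, UMIs ranged from 55 in XO1 to 164 in XO3, and 916 were counted in all pools together. As a share of gene UMIs this was 0.00238% in XO1 (95% exact Clopper-Pearson interval 0.00180 to 0.00310%) and 0.00651% in XO3 (0.00555 to 0.00758%), and these intervals cover counting error only. As CPM of all gene UMIs without the spike-in factors, called plain CPM here, the list had 39.5 ± 9.41 in XX, 35.1 ± 12.1 in XY and 45.1 ± 20.6 in XO oocytes (SD, n = 3). The ranges of the 3 genotypes overlapped. In normalized CPM the sums were 33.3 ± 6.37 in XX, 33.0 ± 12.0 in XY and 58.6 ± 32.2 in XO oocytes (SD, n = 3). Serpine2 supplied 53.7% of the member UMIs, Kitl 31.9% and Tnni3 10.4%. Without Serpine2 the sums were 23.0 in XX, 17.2 in XY and 15.6 plain CPM in XO oocytes, and in normalized CPM they were 19.4 ± 3.05 in XX, 16.2 ± 2.72 in XY and 20.1 ± 9.24 in XO oocytes (SD, n = 3). XO oocytes thus had the lowest mean without Serpine2 on the first scale and the highest on the second. On each scale the range of the XO pools overlapped those of the XX and the XY pools.

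**Figure D1:**
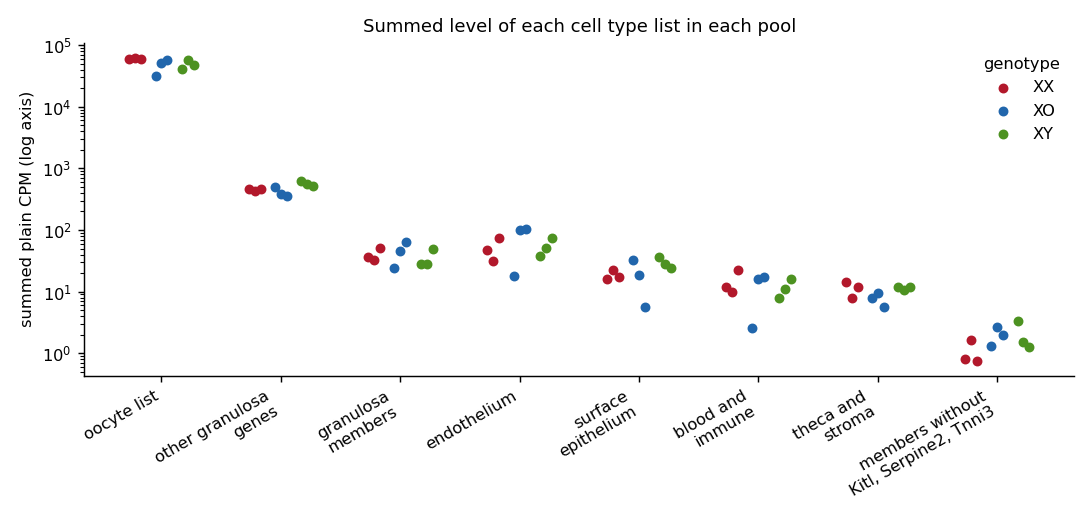
Summed plain CPM (log axis) of each list of cell type genes, with 1 point per pool and colour by genotype. The oocyte list reached 31388 to 62035 and the member list 23.8 to 65.1, of which the 4 members other than Kitl, Serpine2 and Tnni3 made up 0.760 to 3.29. Lists hold different numbers of genes, so pools are to be compared within a list.

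The 4 members with a row other than Kitl, Serpine2 and Tnni3 were scarcely detected. Inhba, the βA subunit of activin A and inhibin A, had 2, 4 and 2 UMIs in XX1 to XX3, 3, 4 and 4 in XO1 to XO3, and 7, 2 and 4 in XY1 to XY3. These counts overlapped between all genotypes. Inha, the α subunit found in every inhibin, had 1 UMI in all, in XY2. Fst, which encodes the activin-binding protein follistatin, also had 1 UMI, in XO2. Wt1 had 1 UMI in each of XO2, XO3 and XY2 and none in XX oocytes. Together these 4 genes had 37 UMIs, 2 to 7 per pool. A count of 0 allows up to 3 UMIs per pool, which is at most 1.41 plain CPM at these depths. The 4 genes did not pass the filter on low counts. Without that filter none of them was called in any comparison, and the log2 difference of Inhba between XX and XO was -1.08 (SE 0.89, edgeR adjusted p = 0.662).

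Further genes of granulosa cells gave a mixed picture. Of 26 listed, 22 had a row and 8 were high enough for the test. Fshr, the receptor for follicle stimulating hormone, had 0 to 8 UMIs per pool, Amhr2, the receptor for anti-Müllerian hormone, had 3 UMIs in all pools together, and Nr5a1, a regulator of steroid synthesis, 1 to 3 per pool. Gja1, the connexin that joins granulosa cells to each other, had 2 UMIs in all and the cyclin gene Ccnd2 had 4. Aromatase, Cyp19a1, was higher, with 7 to 147 UMIs. These 6 genes were picked after their values were seen. The 3 genes with the highest mean normalized CPM of this list were Bmpr1b, which encodes a BMP receptor, with 438 to 1065 UMIs, Esr2, oestrogen receptor β, with 36 to 260, and Igf1, a growth factor, with 53 to 147. Summed over the list, this gave 353 to 633 plain CPM. Since bulk RNA was measured, fewer cells of a type and less RNA per cell cannot be told apart, nor can RNA of these genes made in the oocyte be told apart from RNA of granulosa cells. Inha, Fst and Wt1 were at or near 0, and Amh and Foxl2 had no row, which can mean that no UMI was counted. Other genes of the lists, Bmpr1b and Esr2 among them, were clearly detected. The levels below are therefore described as those of named genes and not of a cell type.

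Genes listed for other cell types of the ovary summed to at most 104 plain CPM per list and pool. Genes of endothelium summed to 17.8 to 104 plain CPM, carried by Pecam1 with 28 to 233 UMIs and Tek with 8 to 34, whereas the endothelial cadherin gene Cdh5 had 1 to 11. Surface epithelium genes summed to 5.56 to 36.1 plain CPM, nearly all of it from Gpm6a, since the keratin genes Krt8 and Krt19 had at most 3 and 2 UMIs in a pool. Genes of blood and immune cells reached 2.60 to 22.4 plain CPM, mostly the receptor gene Csf1r, with Alas2 and C1qb behind it, and those of theca and stroma 5.56 to 14.4, led by Lhcgr, Ptch1 and Star. By contrast, the 20 listed oocyte genes, of which Nlrp14, Zp2 and Oosp1 had the highest means, summed to 3.14 to 6.20% of gene UMIs. Only 1 or 2 genes of each of these 4 somatic lists passed the filter. None of these was called in a comparison of genotypes, where 18.1, 5.8 and 9.93% of all tested genes were called between XX and XO, XX and XY, and XY and XO.

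The comparisons between genotypes asked whether the members differed with the sex chromosomes. They used the edgeR quasi-likelihood test on UMI counts with the spike-in factors of the authors, two-sided. Genes were called at p below 0.05 without adjustment. The study itself tested with limma and took surrogate variables as covariates. With 2 such covariates in the edgeR fit, Kitl was called between XX and XO oocytes and Serpine2 and Tnni3 were not. Kitl, Serpine2 and Tnni3 were the only members among the 10993 tested genes. Normalized CPM are UMIs scaled to the library size times a factor from the spike-ins, and not to spike-in totals.

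Kitl (chromosome 10, 100015630 to 100100416, GRCm38) encodes KIT ligand. Its UMIs were 48, 40 and 63 in XX1 to XX3, 16, 11 and 17 in XO1 to XO3, and 28, 33 and 36 in XY1 to XY3. In normalized CPM these were 17.1, 14.0 and 19.2, then 8.28, 5.69 and 9.60, then 13.01, 10.7 and 10.9. Every XX pool was above every XY pool, and every XY pool above every XO pool. This order without overlap was found in 13 of the 10993 tested genes (0.118%). Means were 16.8 ± 2.61 in XX, 11.5 ± 1.28 in XY and 7.86 ± 1.99 in XO oocytes (SD, n = 3), which is a ratio of 2.13 for XX to XO, 1.45 for XX to XY and 1.47 for XY to XO.

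Serpine2 (chromosome 1, 79794197 to 79861180) encodes protease nexin 1, a secreted inhibitor of thrombin and of plasminogen activators. Its UMIs were 36, 32 and 58 in XX1 to XX3, 34, 67 and 112 in XO1 to XO3, and 21, 36 and 96 in XY1 to XY3. The corresponding normalized CPM were 12.8, 11.2 and 17.7, then 17.6, 34.6 and 63.2, then 9.76, 11.7 and 29.0. The high pools were XO3, XO2 and XY3, while XO1 was at the level of XX3, so all pairs of genotypes overlapped. Means were 13.9 ± 3.36 in XX, 16.8 ± 10.6 in XY and 38.5 ± 23.1 in XO oocytes (SD, n = 3), with XO 2.77 times XX and 2.29 times XY.

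Tnni3 (chromosome 7, 4518305 to 4524229) encodes troponin I of heart muscle, the subunit that inhibits contraction. It had 4, 3 and 9 UMIs in XX1 to XX3, 2, 22 and 30 in XO1 to XO3, and 3, 3 and 19 in XY1 to XY3. In normalized CPM it had 1.42, 1.05 and 2.74, then 1.04, 11.4 and 16.9, then 1.39, 0.977 and 5.74. As with Serpine2, XO2, XO3 and XY3 stood above the other pools, which had fewer than 10 UMIs each. Means were 1.74 ± 0.888 in XX, 2.70 ± 2.64 in XY and 9.78 ± 8.07 in XO oocytes (SD, n = 3). In 1 of 8 Tnni3 transcripts of Gencode vM21, Tnni3-207, an exon of 86 bases (4524144 to 4524229) lies within an exon of Dnaaf3 on the same strand, a gene with no row in the UMI matrix, so some Tnni3 UMIs could belong to it.

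**Figure D2:**
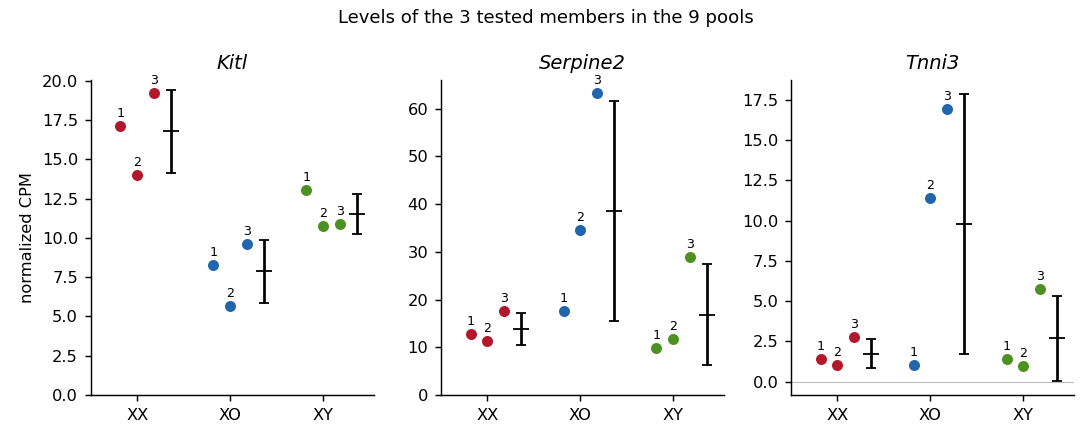
Normalized CPM of Kitl, Serpine2 and Tnni3 in the 9 pools, with replicate numbers at the points and bars for the mean ± SD (n = 3). Kitl was 14.0 to 19.2 in XX, 10.7 to 13.01 in XY and 5.69 to 9.60 in XO pools, whereas Serpine2 and Tnni3 were high in XO2, XO3 and XY3.

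Between XX and XO oocytes, 18.1% of all tested genes passed the threshold, 1.4% higher and 16.7% lower in XX. Against this background all 3 tested members passed it, Kitl higher and Serpine2 and Tnni3 lower in XX oocytes. The log2 fold change of Kitl was 1.09 (SE 0.31, edgeR adjusted p = 0.203). No gene in the comparison had an edgeR adjusted p below the threshold (0%), although DESeq2 with the same factors gave 497 such genes. The median of all tested genes was -0.46, so Kitl was 1.55 above it, in the direction opposite to most called genes. Groups without overlap were found in 2.79% of genes higher in XX, with Kitl among them, and in 13.6% of genes lower in XX.

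The change of Serpine2 was -1.46 (SE 0.54, edgeR adjusted p = 0.229) and that of Tnni3 was -2.43 (SE 0.93, edgeR adjusted p = 0.234). Relative to the median of all genes these were -1.005 and -1.98, so Serpine2 fell in a direction taken by many genes here. Both calls depended on the pools included. Without XO3 the log2 difference was -0.91 for Serpine2 and -1.79 for Tnni3, without XX1 it was -1.27 and -2.19, and without XX2 it was -1.33 and -2.19, and neither passed in these 3 fits. Tnni3 also did not pass without XO2, at -2.31. By contrast, without XO1 the changes were -1.78 (edgeR adjusted p = 0.0210) and -2.93 (edgeR adjusted p = 0.0114), where 35.1% of tested genes were called. Over all alternatives the adjusted p ranged from 0.0210 to 0.922 for Serpine2 and from 0.00491 to 0.918 for Tnni3. Kitl passed without any 1 of the 9 pools, with log2 fold changes of 0.91 to 1.26.

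The scaling between pools set how many genes were called in each direction. With spike-in factors 154 genes had higher levels in XX oocytes and 1832 had higher levels in XO oocytes, whereas these numbers were 986 and 421 with total gene UMIs, 481 and 864 with TMM over genes, and 290 and 53 with spike-in totals. The median of all genes moved to 0.10, -0.11 and 0.42, respectively. Kitl was 1.31 to 1.68 above the median in all 18 alternative settings, and in each of them XX oocytes had the higher level. Relative to the median, Serpine2 was between -1.38 and -0.38 and Tnni3 between -2.54 and -0.40.

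Between XX and XY oocytes no member passed the threshold, while 5.8% of tested genes did, 1.41% higher and 4.39% lower in XX, and 0.0819% after adjustment. The log2 difference was 0.54 for Kitl (SE 0.30, edgeR adjusted p = 0.989), -0.28 for Serpine2 (SE 0.54) and -0.65 for Tnni3 (SE 0.97), the last 2 with an edgeR adjusted p of 1.00. Kitl was nevertheless higher in every XX pool than in any XY pool, as in 4.15% of tested genes, where 11.7% had the opposite order. It passed the threshold in 5 of 18 alternative settings. Without XY3 the differences of Serpine2 and Tnni3 were 0.38 and 0.59, so their sign rested on that pool.

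Between XY and XO oocytes 9.93% of tested genes passed the threshold, 1.69% higher and 8.24% lower in XY, and 0.0364% after adjustment, and again no member did. Kitl was higher in every XY pool than in any XO pool, as in 3.88% of genes, where 6.34% had the opposite order, and its log2 difference was 0.55 (SE 0.32, edgeR adjusted p = 0.549). The differences were -1.18 for Serpine2 (SE 0.54, edgeR adjusted p = 0.502) and -1.78 for Tnni3 (SE 0.89, edgeR adjusted p = 0.521). The labels do not pair pools of the same number, and such a pairing was read from the expression values alone. When replicates of the same number were blocked, Serpine2 and Tnni3 both passed. Their differences were then -1.19 (SE 0.32, edgeR adjusted p = 0.227) and -1.85 (SE 0.64, edgeR adjusted p = 0.246), while 16.6% of all tested genes were called. Both also passed without XO1, at -1.44 and -2.23, and without XY3, at -1.73 and -2.92. The adjusted p ranged from 0.0701 to 1.00 for Serpine2 and from 0.0479 to 1.00 for Tnni3 over the alternatives. The XO pools are shared by this comparison and that of XX with XO, so they are not independent.

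**Figure D3:**
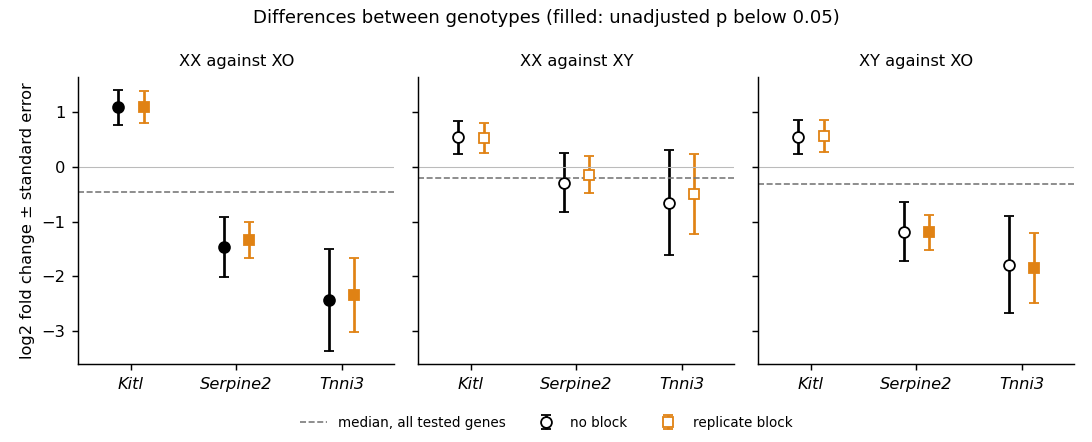
Log2 fold change ± standard error of the 3 tested members in the 3 comparisons, from the edgeR fit without a block (circles) and with replicates blocked by number (squares). Filled symbols have an unadjusted p below 0.05 and the dashed line is the median of all tested genes, which was -0.46, -0.19 and -0.30. Kitl is above 0 and above the median in all panels, and Serpine2 and Tnni3 are called between XX and XO and, with the block, between XY and XO.

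Over the 9 pools the members did not rise and fall as 1 group. Serpine2 and Tnni3 followed each other, with Pearson's r of 0.948 on log2(normalized CPM + 1) (exact permutation p = 0.000457, adjusted p = 0.00137 over 3 relations) and Spearman's rho of 0.80 (exact permutation p = 0.0138, adjusted p = 0.0415). Without XO2 and XO3, the pools farthest from the median of Serpine2, r was 0.834, and it was 0.931 on deviations from the genotype means. Such a relation was common in these pools, since 897 genes (8.16%) had an r of at least 0.9 with Serpine2, and Tnni3 ranked 208 among them. Kitl was not related in this way to either gene over all pools. Its r was -0.528 with Serpine2 (exact permutation p = 0.146, adjusted p = 0.179, rho -0.45, permutation p = 0.230) and -0.493 with Tnni3 (exact permutation p = 0.179, adjusted p = 0.179, rho -0.13, permutation p = 0.744). Without XX3 and XO2, farthest from the median of Kitl, these were -0.526 and -0.335. On deviations from the genotype means r was 0.139 between Kitl and Serpine2, so their negative value over all pools lay between genotypes.

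**Figure D4:**
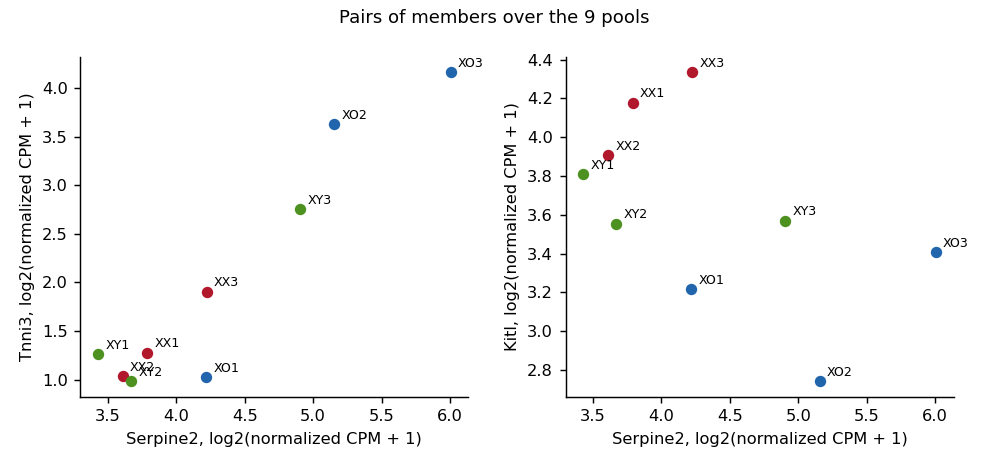
Tnni3 (left) and Kitl (right) against Serpine2, each as log2(normalized CPM + 1), with 1 labelled point per pool. Tnni3 rises with Serpine2 (r = 0.948), with XO3, XO2 and XY3 at the upper end, whereas Kitl separates the genotypes. For Kitl r was -0.528 over all pools and 0.139 on deviations from the genotype means.

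The summed level of the members was compared with each tested gene. The 5 genes most like it by Pearson's r over the 9 pools were Usp13 (0.991), Adamtsl1 (0.987), Timm10 (0.986), Igf2bp2 (0.985) and Aff1 (0.985), among 10990 genes. Of the tested oocyte genes, 15 of 18 had a positive r with the member sum, with a median of 0.809, whereas of the further granulosa genes 4 of 8 did, with a median of -0.01. Over all 10990 genes 63.2% had a positive r, with a median of 0.391. Esr2 had the highest value among the latter, 0.931, and Ooep, an oocyte gene needed for early cleavage, among the former, 0.955. All these values share the same libraries and scaling and are given as a description.

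Some oocyte genes differed between XX and XO oocytes as well. Of 18 tested oocyte genes, 7 were lower in XX than in XO oocytes, where 16.7% of all tested genes were, and none was higher. They were Zp1 at -3.81, Tcl1 at -3.54, H1foo at -3.35, Nobox at -2.85, Padi6 at -2.83, Ooep at -2.21 and Gdf9 at -2.11 in log2 fold change. Their edgeR adjusted p was 0.203 to 0.257. For Gdf9 the paper, with its own test, reported no difference among the genotypes in the same sequencing. Its qRT-PCR also gave none in oocytes of the size sequenced or larger. The 7 called genes, chosen for their difference between XX and XO, were summed in plain CPM. Levels were 2112, 2218 and 4199 in XX1 to XX3, 1024, 12008 and 22460 in XO1 to XO3, and 1391, 2635 and 4726 in XY1 to XY3. As for Tnni3, XO1 was low among the XO pools, and XO1 and XY1 also had the highest mitochondrial shares. In plain CPM the whole oocyte list, with 11 tested genes that were not called, had another order. It had 60291, 62035 and 60227 in XX1 to XX3, 31388, 51205 and 57010 in XO1 to XO3, and 41078 to 57942 in XY pools. In normalized CPM, which hold spike-in factors as the fold changes do, the list had 53570, 53159 and 48304 in XX1 to XX3. It had 37479, 60488 and 81101 in XO1 to XO3, and 40669, 50112 and 44528 in XY1 to XY3. On that scale XO3 and XO2 were the highest pools and XO1 the lowest. The part of these differences between pools in the values of Serpine2 and Tnni3 was not tested.

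Partners of the members were examined from lists of receptors, SMADs and oocyte ligands and of proteases. Kit, the receptor for KIT ligand, had 123 to 445 UMIs per pool and means of 109 ± 17.2 in XX, 105 ± 25.4 in XY and 146 ± 73.9 in XO oocytes in normalized CPM (SD, n = 3). It was not called in any comparison, with log2 differences of -0.42 between XX and XO (SE 0.42, edgeR adjusted p = 0.588), 0.05 between XX and XY (SE 0.42, edgeR adjusted p = 1.00) and -0.47 between XY and XO (SE 0.42, edgeR adjusted p = 0.674). The difference in Kitl was thus not accompanied by a called difference in its receptor. Of the 12 tested genes of this list, 2 were lower in XX than in XO oocytes, Gdf9 and Smad4 (log2 fold change -0.81, edgeR adjusted p = 0.265), the SMAD shared by the TGF-β and BMP branches. This was close to the 16.7% of all tested genes called in that direction. Bmp15 is X-linked and encodes a ligand secreted by the oocyte. It was the only 1 called between XX and XY, where 5.8% of all tested genes were called. Bmp15 was higher in XX oocytes by 1.32 (edgeR adjusted p = 0.408). It was lower in XY than in XO oocytes by a log2 fold change of -1.26 (edgeR adjusted p = 0.485), as was Gdf9 at -2.10 (edgeR adjusted p = 0.485). Of all tested genes, 8.24% were called lower in XY than in XO oocytes. Between XX and XO oocytes Bmp15 differed by only 0.06 (edgeR adjusted p = 0.929). The paper also reported the lowest Bmp15 level in XY oocytes from its sequencing. In its qRT-PCR, XY oocytes were below XX oocytes at almost all sizes, and XO oocytes were below XX oocytes, not always significantly. XY levels below those of XO were reported there for the end of growth, later than the oocytes sequenced. Smad2, with Bmp15 and Gdf9 among the 3 highest of the list, had 227 to 423 UMIs and was not called.

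Among the proteases and their regulators 2 of 8 genes were tested. Plat, tissue plasminogen activator, a target of the inhibitor that Serpine2 encodes, had 582, 620 and 823 UMIs in XX1 to XX3, 603, 907 and 1961 in XO1 to XO3, and 461, 500 and 701 in XY1 to XY3. Its log2 fold change was -1.48 between XX and XO (SE 0.46, edgeR adjusted p = 0.203) and -1.68 between XY and XO (SE 0.46, edgeR adjusted p = 0.485). Like Serpine2 it was highest in XO3. F2, the gene of prothrombin, was called only between XY and XO, at -2.38 (edgeR adjusted p = 0.485), on 1 to 32 UMIs per pool. Plat was called in both comparisons with XO. Of all tested genes, 16.7% were called lower in XX than in XO and 8.24% lower in XY than in XO. Serpinf2, an inhibitor of plasmin, had 2 to 12 UMIs and was not tested.

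Of the further granulosa genes, Hsd3b1, an enzyme of progesterone synthesis, was the only 1 of 8 to be called, a share near that of all tested genes, 18.1% between XX and XO and 9.93% between XY and XO. It had 14, 9 and 4 UMIs in XX1 to XX3, 16, 15 and 13 in XO1 to XO3, and 7, 9 and 8 in XY1 to XY3. Its log2 fold change was -1.32 between XX and XO (SE 0.48, edgeR adjusted p = 0.223) and -1.44 between XY and XO (SE 0.48, edgeR adjusted p = 0.485). Unlike Serpine2 and Tnni3, Hsd3b1 was about as high in XO1 as in XO2 and XO3. The median log2 difference of the 8 genes between XX and XO was -0.52, beside -0.46 over all tested genes.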

How the data were processed

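Smart-seq3 libraries were made from 9 pools of 30 oocytes. The authors aligned reads with HISAT2 to GRCm38 and deposited UMI counts per gene, which were used as deposited. The authors also deposited a signal called normalized CPM, in which each column was the count column times 1 constant when checked, and a matrix of log2 values from which they had regressed batch effects, used here only as an alternative. Every sample column was mapped to a label. The XO column without a number was matched to its sample by the text of the labels. The further entry that names no gene was left out, and spike-ins entered only the scaling.

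Counts were tested with edgeR 4.0.16 in R 4.3.3 (filterByExpr by genotype, spike-in TMM factors, 1 mean per genotype, all 9 pools in 1 fit), two-sided, at an unadjusted p of 0.05 with Benjamini-Hochberg adjustment beside it. The fit was also run on simulated counts drawn independently for each pool, so deviations shared between pools were not covered. Correlations used scipy 1.17.1 and a pseudocount of 1. Intervals and the floor of 3 UMIs cover counting error only. Alternatives were DESeq2 1.42.0, limma 3.58.1 on the batch-regressed values, sva 3.50.0, other scalings, no filter, the replicate block and leaving out each pool.

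Same-numbered XY and XO pools deviated together from their genotype means (correlations over genes of 0.830, 0.278 and 0.773). The labels state no pairing, and XY and XO females had different sires. These pools were taken as paired from the expression values alone, and number 2 was only weakly related. The main fit left this pairing out, and only the alternative with the replicate block used it. With XX pools the correlations were 0.468, -0.447 and 0.679 for XO and 0.435, -0.060 and 0.726 for XY. Numbers 1 and 3 thus deviated together but number 2 did not, and XX pools were not judged to be paired. The replicate block nevertheless covered the XX pools too. Genes named are the 10 members, the 3 highest and the called genes of each list, up to 5, and the 5 genes most like the member sum. All 7 called oocyte genes were named and 6 further granulosa genes (Cyp19a1 and 5 low ones) were chosen after their values were seen. The members and lists were chosen with earlier results of these data known.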

Additional observations from a re-analysis of the deposited data

How the results depend on the processing

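Kitl kept its direction in all 3 comparisons under all 18 alternatives, and between XX and XO oocytes it passed an unadjusted p of 0.05 in 18 of 18, with log2 fold changes of 0.91 to 2.10, and adjusted p of 0.000652 to 0.918. Serpine2 passed there in 11 of 18 (-1.78 to -0.20) and Tnni3 in 10 of 18 (-2.93 to -0.11). The lowest adjusted p of Kitl came from limma on batch-regressed values, in a fit that made no allowance for the earlier regression. That fit called 43.5% of tested genes between XX and XO. Of the 3 members called between XX and XO, 1 was called with total gene UMIs, with spike-in totals, with 2 sva covariates and with limma on batch-regressed values, and 1 to 3 when each pool was left out. Between XX and XY, where 0 were called, 1 was called with TMM over genes, total gene UMIs, 2 sva covariates, the own size factors of DESeq2 and limma, and 0 without any 1 pool. Between XY and XO, where 0 were called, 1 was called with TMM over genes, total gene UMIs, 2 sva covariates, DESeq2 with spike-in factors and limma, 2 with no filter, 2 with the replicate block, and 0 to 2 when each pool was left out. The replicate block changed no other call of a member. Values that turned were these. Serpine2 between XX and XY was 0.30 with spike-in totals, 0.090 with 2 sva covariates and -0.55 to 0.38 when each pool was left out, Tnni3 between XX and XY was -1.17 to 0.59 when each pool was left out, and Tnni3 between XY and XO was 0.054 with limma. The highest values of both ranges came without XY replicate 3. The cause was not tested. Without Serpine2 the member sum in plain CPM was 23.0 in XX, 17.2 in XY and 15.6 in XO oocytes. Over all genes, calls between XX and XO ranged from 343 (spike-in totals) to 4786 (limma) around 1986, between XX and XY from 284 to 2465 around 638, and between XY and XO from 136 to 4725 around 1092. Depth limits what can be said of Inha, Inhba, Fst and Wt1, which had at most 7 UMIs in a pool.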

Other observations

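The genes most like Kitl over the 9 pools, listed after values were seen, were Ms4a1 (Pearson's r = 0.937), Stat4 (0.933), Trappc5 (0.912), Gm11846 (0.905) and Pdzph1 (0.904) on log2(normalized CPM + 1). Only 5 tested genes (0.0455%) had an r of at least 0.9 with Kitl, whereas 1578 (14.4%) had one with Tnni3. Of the tested oocyte genes, 3 of 18 had a positive r with Kitl, with a median of -0.19, beside -0.23 over all genes, so they did not stand apart in this. With Tnni3 15 of 18 had a positive r, with a median of 0.818, beside 0.404 over all genes, of which 63.1% were positive.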
